A study of Drosophila melanogaster with 72 samples.

Results

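The translation initiation factors of Drosophila melanogaster were followed here through total, monosome and polysome RNA of whole female flies. They were taken as every gene whose FlyBase symbol begins with eIF, which gave 44 genes of 23932 features counted. Grouped by complex, 3 genes encode eIF2, 5 encode eIF2B, 2 encode the factors eIF2A and eIF2D, 16 encode eIF3 subunits and their paralogs, 13 belong to the eIF4 group and 5 act in scanning and subunit joining. Their share of all counts was 0.901 to 1.25% in total RNA libraries and 0.862 to 1.30% in polysome libraries.

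Initiation begins when eIF2, recharged with GTP by eIF2B, brings the initiator tRNA to the small ribosomal subunit, which carries the large scaffold eIF3 together with eIF1 and eIF1A. The cap of the mRNA is bound by eIF4E, which joins the scaffold eIF4G and the helicase eIF4A, with eIF4B and eIF4H as helicase cofactors. Thor, the fly 4E-BP, is a target of mTORC1 that binds eIF4E and keeps eIF4G away from it, and Rheb is the small GTPase that switches mTORC1 on. In mammals the mRNAs of some of these factors are themselves translated under mTORC1 control.

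The flies fall into 9 groups. The Thor[2] allele was combined at 15 d with each of 2 alleles, giving Thor[2];Lsp2[A10] flies and, with the other, Thor[2];Lsp2[B14] flies. Both are alleles of Lsp2, the gene of larval serum protein 2, a hexamerin made by the fat body. They are set against Lsp2[A10] and Lsp2[B14] flies at 15 d, and the same 2 alleles were also taken at 2-3 d. These 6 groups had 3 replicates each, and every one of them carries an Lsp2 allele. The other groups, at 15 d with 2 replicates each, are Lpp[TS]>Lsp2 and Lpp[TS]>Rheb, in which the Lpp driver, known as a fat body driver, is crossed to Lsp2 or Rheb, and Lpp[TS]>w1118 as their control. The labels do not spell out [TS] or the sequence change of any allele. They call the replicates biological without saying how many flies each held. For each replicate, powder of whole females was divided between total RNA and a sucrose gradient, from which monosome and polysome fractions were taken.

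Library totals were 15298423 to 39691305 counts for total RNA, 5074901 to 21253221 for monosomes and 3134416 to 31312078 for polysomes. Levels are given as CPM, counts scaled to a common library size with factors from the trimmed mean of M values, and the polysome-to-total ratio as log2 of polysome over total CPM. Its test treats the libraries as independent, although the total and polysome libraries of a replicate come from the same powder. A fit with the flies of each replicate as a block is therefore given wherever it changed a call in the ratio. A gene is said to have risen or fallen, or to be called, where its Benjamini-Hochberg adjusted p over all genes tested was under 0.05 in edgeR's quasi-likelihood test. Counts of called factors from other fits, such as another scaling, come with the share of all genes called there only where stated. Elsewhere they show how far a count moved and are not read as results about the factors. The label checks differed between genes. Lsp2 stood at 7433 and 6331 CPM in Lpp[TS]>Lsp2, 2413 and 2614 CPM in Lpp[TS]>Rheb, and 4.52 and 5.21 CPM in Lpp[TS]>w1118. Rheb was at 935 and 981 CPM in Lpp[TS]>Rheb, against 127 and 125 CPM in Lpp[TS]>w1118. Thor RNA was at 289, 272 and 392 CPM in the libraries labelled Thor[2];Lsp2[A10], against 261, 198 and 227 CPM in Lsp2[A10] at 15 d, and at 348, 277 and 316 CPM in those labelled Thor[2];Lsp2[B14], against 232, 267 and 262 CPM in Lsp2[B14]. In total RNA, a lower Thor transcript therefore does not mark the libraries labelled Thor[2]. The polysome-to-total ratio of Thor was lower in them, without overlap in either pair. It was 0.59, 0.31 and 0.02 in Thor[2];Lsp2[A10], against 0.81, 1.29 and 1.41 in Lsp2[A10] at 15 d. In the other pair it was 0.04, 0.08 and 0.50 in Thor[2];Lsp2[B14], against 1.29, 1.42 and 1.17 in Lsp2[B14] at 15 d. Whether this marks the allele was not tested, and every direction given below for these libraries rests on the label. The batch entry of the labels repeats genotype and fraction, and the 2-3 d libraries came in a table of their own, so batch and group, and age and table, cannot be told apart. In 1 of the 2 total RNA libraries of Lpp[TS]>Lsp2 the 4 testis markers summed to 61.0 CPM, and to 0.0854 CPM in the other, although all flies are labelled female. They summed to 8.75 and 22.4 CPM in the libraries of Lpp[TS]>w1118, the control of both other Lpp[TS] lines. In whole flies, fewer cells of a type and less RNA per cell cannot be told apart.

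Per kb of exon, the helicase eIF4A was the most abundant factor, with 526 ± 42.8 CPM per kb in Lsp2[A10] at 15 d (SD, n = 3), followed by eIF1 with 393 ± 80.7, eIF4E1 with 289 ± 10.7, eIF3b with 260 ± 23.4 and eIF2beta with 229 ± 12.7 CPM per kb. Neither eIF4E1 and eIF3b nor eIF3b and eIF2beta differed by more than their SDs combined. eIF4B stood at 80.1 ± 4.56 CPM per kb in the same flies, at rank 23 of the factors. Among the 13 eIF3 subunits above 10 CPM the level per kb ran between 114 for eIF3a and 260 for eIF3b in those libraries. The paralogs eIF4E4, eIF4E7, eIF3d2, eIF3f2, eIF3g2 and eIF4H2 were too low to test in the 6 groups of allele lines, where eIF3f2 had 0 to 3 counts a library. With them out, 37 factors were tested in total RNA and 38 in the polysome-to-total ratio, eIF4E5 being the one tested in the ratio alone.

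In flies labelled Thor[2], more initiation factor genes rose in total RNA than fell. The largest falls were those of eIF4G2, eIF4B and eIF4G1, while the cap-binding protein eIF4E1 fell little and eIF4A rose. In the Lsp2[A10] pair 20 of 37 rose and 9 fell, so that 78.4% were called, against 66.8% of all genes tested. In the Lsp2[B14] pair 19 rose and 10 fell, again 78.4%, against 69.2% of all genes. The median log2 change was 0.24 over the factors and 0.04 over all genes in the first pair, and 0.28 and 0.03 in the second. Scaled by library totals, which moved the median of all genes to -0.16 and -0.11, 10 factors rose and 13 fell in the first pair, and 13 rose and 12 fell in the second. Of the factors called higher, 18 were the same in both pairs, 90% of the 20 and 94.7% of the 19. Of those called lower, 9 were shared, 100% of the 9 and 90% of the 10. The pairs have no library in common, but they come from the same deposited table and the same fit. For none of the shared calls given here or below was the share in common over all genes computed.

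By complex, all 3 eIF2 subunits and both eIF2A and eIF2D rose in each pair. Of the 13 eIF3 subunits tested, 7 rose and 2 fell with Lsp2[A10], and 7 rose and 3 fell with Lsp2[B14]. The eIF4 group ran the other way, with 3 of 9 higher and 5 lower in the first pair, and 2 higher and 5 lower in the second. Its median log2 change was -0.41 and -0.27.

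**Figure D1:**
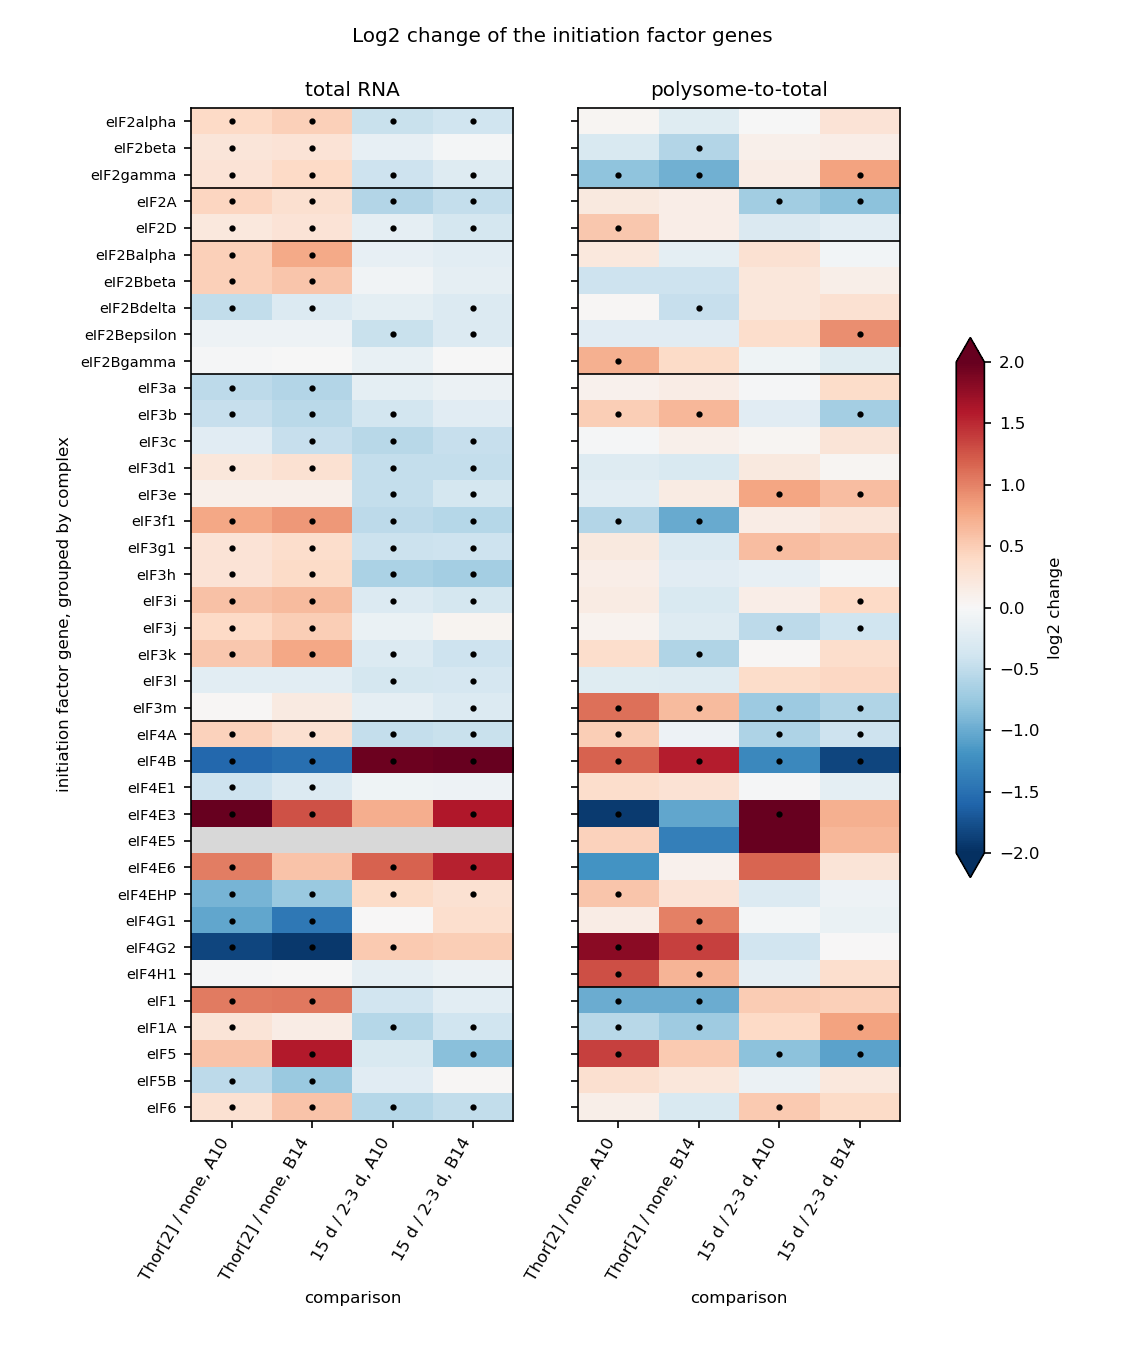
Log2 changes of the initiation factors in total RNA and in the polysome-to-total ratio, with factors in rows by complex and, in columns, Thor[2] over no Thor[2] and 15 d over 2-3 d in each Lsp2 allele. Red is higher and blue lower on the colour scale, a dot marks a called change and grey a factor not tested. The eIF4B cells are deeply coloured and dotted in every column and turn sign between Thor[2] and age, and eIF4G2 is as deep for Thor[2].

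The eIF4 factors are described first, since Thor acts on them. eIF4B, FBgn0020660, lies on 3L at 27842669 to 27858271 on the minus strand (BDGP6.54). It was at 52.0, 53.6 and 56.6 CPM in flies labelled Thor[2];Lsp2[A10], against 152, 146 and 164 CPM in Lsp2[A10], and at 57.1, 55.8 and 51.3 CPM in Thor[2];Lsp2[B14], against 162, 144 and 140.3 CPM in Lsp2[B14]. All libraries labelled Thor[2] lay far below the others, with no overlap in either pair. The log2 change was -1.56 ± 0.09 (SE, adjusted p = 8.89e-08) and -1.51 ± 0.09 (adjusted p = 6.13e-07).

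eIF4G2, a paralog of the eIF4G scaffold known in flies for its part in spermatogenesis, fell furthest. It was at 39.7, 41.2 and 47.3 CPM in Thor[2];Lsp2[A10], against 137, 159 and 144 CPM in Lsp2[A10], with a log2 change of -1.83 ± 0.20 (SE), and of -1.94 ± 0.20 in the other pair. eIF4G1, the general scaffold, was at 393, 377 and 412 CPM in Thor[2];Lsp2[A10], against 638, 826 and 878 CPM in Lsp2[A10], and at 301, 322 and 430 CPM in Thor[2];Lsp2[B14], against 878, 980 and 829 CPM in Lsp2[B14]. Groups did not overlap for either gene, and the log2 change of eIF4G1 was -1.04 ± 0.15 and -1.42 ± 0.15. eIF4EHP, a cap-binding protein that does not recruit eIF4G and represses the mRNAs it binds, changed by -0.93 ± 0.09 and -0.74 ± 0.09. Of the exon bases, eIF4G2 shares 8.56% with CG33111 and eIF4EHP 6.97% with Syx1A, a limit on both values. eIF4E1, the main cap-binding protein and the direct partner of Thor, fell less, by 0.41 ± 0.08 (adjusted p = 0.000634) and 0.27 ± 0.08 (adjusted p = 0.0111). Its levels were 539, 475 and 498 CPM in Thor[2];Lsp2[A10], against 668, 621 and 650 CPM in Lsp2[A10].

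eIF4A went the other way from its partners. It was at 1839, 1837 and 1899 CPM in Thor[2];Lsp2[A10], against 1384, 1183 and 1343 CPM in Lsp2[A10], and rose by 0.46 ± 0.08 and 0.32 ± 0.08 log2. All 3 libraries labelled Thor[2] were above the others in each pair. The low paralog eIF4E3, which flies need in the male germline, rose by 2.18 ± 0.31 and 1.27 ± 0.31, at 2.56, 2.35 and 2.56 CPM in Thor[2];Lsp2[A10] against 0.443, 0.608 and 0.528 CPM in Lsp2[A10]. eIF4E6, another low eIF4E paralog, rose in the first pair, by 1.02 ± 0.30. The helicase cofactor eIF4H1 was not called, with changes of -0.03 ± 0.09 and -0.01 ± 0.09.

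**Figure D2:**
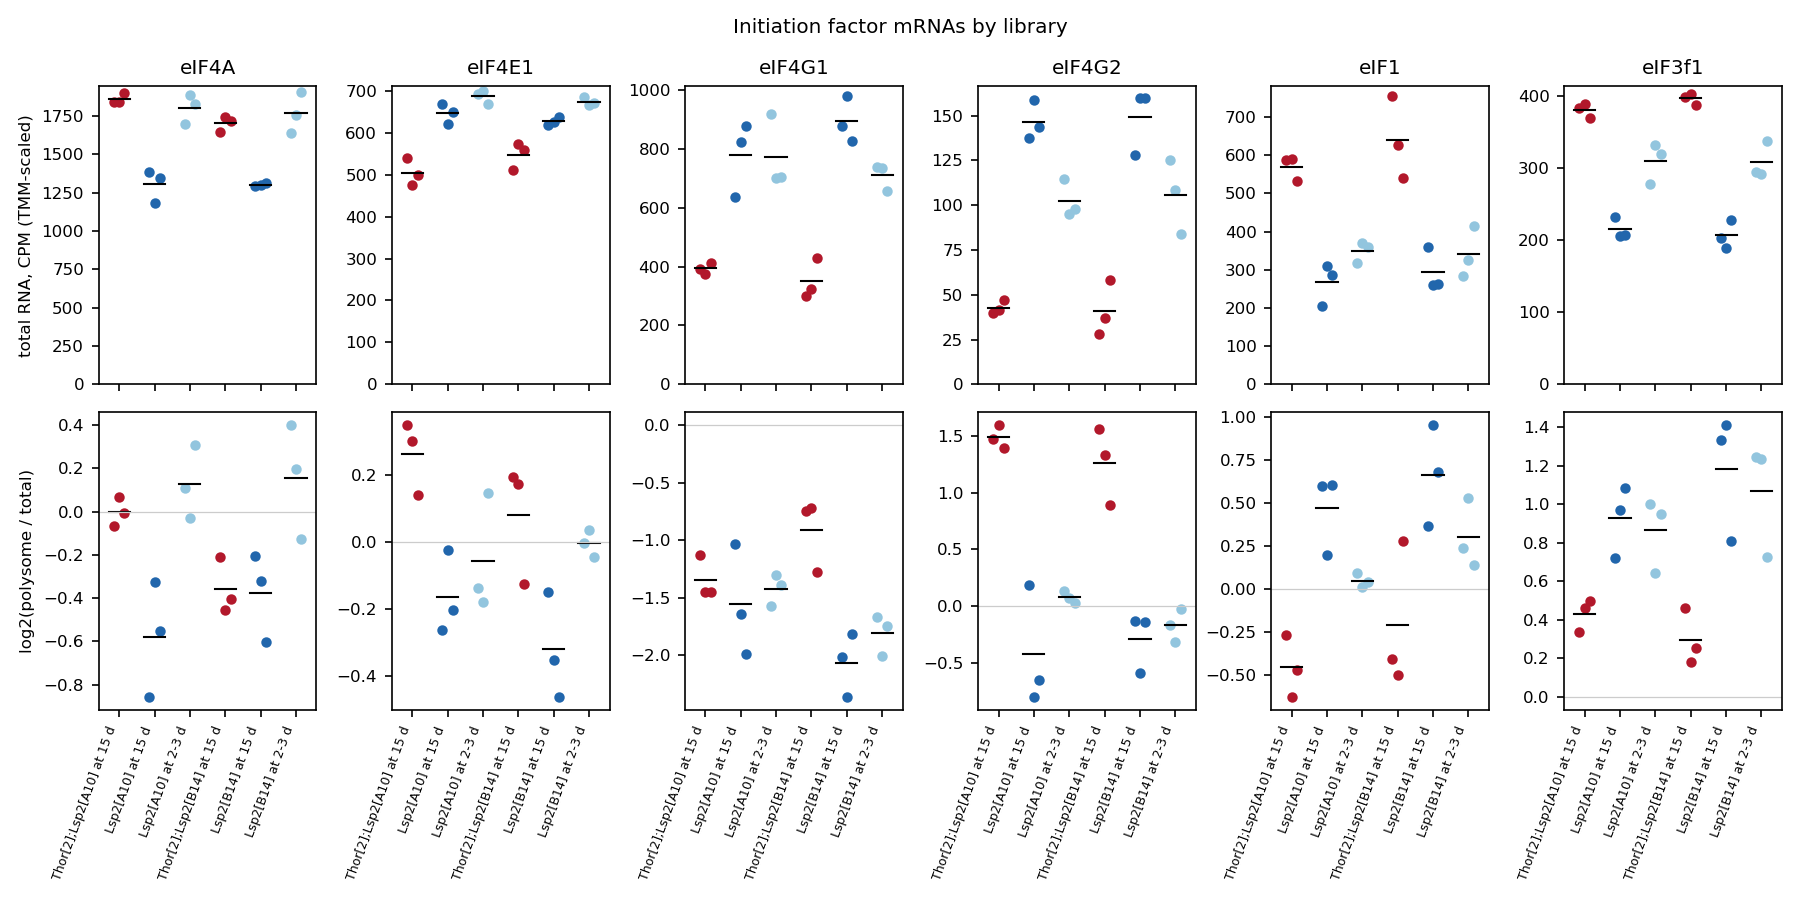
Total RNA levels in CPM of eIF4A, eIF4E1, eIF4G1, eIF4G2, eIF1 and eIF3f1 in each library of the 6 groups of allele lines; points are libraries and lines the group means. eIF4A, eIF1 and eIF3f1 sit higher in the libraries labelled Thor[2] than in the 15 d libraries without it, and eIF4E1, eIF4G1 and eIF4G2 sit lower.

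Among the factors that handle the initiator tRNA, changes were small and mostly upward. eIF2alpha, the subunit whose phosphorylation by Gcn2 and PEK slows initiation, rose by 0.40 ± 0.09 and 0.48 ± 0.09. Of its exon bases 12.6% are shared with rngo on the opposite strand, a limit if the counting ignored strand. eIF2gamma, the GTP-binding subunit, rose by 0.27 ± 0.08 and 0.39 ± 0.08, and eIF2A by 0.42 ± 0.08 and 0.33 ± 0.08. The eIF2B subunits diverged. eIF2Balpha rose by 0.48 ± 0.10 and 0.76 ± 0.10 and eIF2Bbeta by 0.48 ± 0.09 and 0.56 ± 0.09, both of the regulatory subcomplex, while eIF2Bdelta, also of it, fell by 0.49 ± 0.09 and 0.28 ± 0.09. The catalytic pair eIF2Bepsilon and eIF2Bgamma changed by -0.10 ± 0.09 and -0.02 ± 0.10 in the first pair and were not called.

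In eIF3, the core subunits eIF3a and eIF3b fell, by 0.52 ± 0.09 and 0.45 ± 0.11 with Lsp2[A10] and by 0.59 ± 0.09 and 0.54 ± 0.11 with Lsp2[B14]. eIF3c fell in the Lsp2[B14] pair alone, by 0.46 ± 0.11, with -0.22 ± 0.11 in the other. The subunits that rose most were eIF3f1, an MPN-domain subunit, by 0.77 ± 0.09 and 0.87 ± 0.09, eIF3i by 0.59 ± 0.08 and 0.63 ± 0.08, and the accessory subunit eIF3k by 0.54 ± 0.10 and 0.77 ± 0.10. eIF3f1 was at 383, 389 and 369 CPM in Thor[2];Lsp2[A10], against 232, 206 and 207 CPM in Lsp2[A10], without overlap. The loosely bound eIF3j rose by 0.39 ± 0.09 and 0.49 ± 0.09. Per kb of exon, the subunits ran between 82.9 for eIF3a and 335 for eIF3i CPM per kb in Thor[2];Lsp2[A10], against 114 for eIF3a and 260 for eIF3b in Lsp2[A10].

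Of the scanning and joining factors above 10 CPM, eIF1, which guards start-codon choice, rose most. It was at 587, 589 and 533 CPM in Thor[2];Lsp2[A10], against 206, 311 and 286 CPM in Lsp2[A10], and at 754, 628 and 540.0 CPM in Thor[2];Lsp2[B14], against 360.0, 261 and 264 CPM in Lsp2[B14]. The log2 change was 1.03 ± 0.17 (adjusted p = 0.000126) and 1.05 ± 0.17 (adjusted p = 0.00011), about 2.05-fold in the first pair by group means. eIF6, which keeps the large subunit from joining early, rose by 0.31 ± 0.09 and 0.58 ± 0.09. eIF5B, the GTPase of subunit joining, fell by 0.53 ± 0.11 and 0.75 ± 0.11. eIF1A rose in the first pair, by 0.26 ± 0.07. eIF5, the GTPase activator of eIF2, rose by 1.58 ± 0.25 in the Lsp2[B14] pair, but its exons share 80.8% of their bases with CG46312 on the same strand, and it had under 5 CPM in every allele-line library, so its value is uncertain.

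On polysomes, the factors as a class were called about as often as other genes, and single factors stood out. The polysome-to-total ratio rose for 10 of 38 factors and fell for 5 in the Lsp2[A10] pair, 39.5% called against 41% of all genes, and rose for 6 and fell for 7 in the Lsp2[B14] pair, 34.2% against 43.6%. The median log2 change was 0.14 over the factors and -0.06 over all genes in the first pair, and -0.21 and 0.00 in the second. Calls shared by both pairs were eIF3b, eIF3m, eIF4B, eIF4G2 and eIF4H1 upward, which is 50% of the 10 and 83.3% of the 6. Shared downward calls were eIF1, eIF1A, eIF2gamma and eIF3f1, 80% of the 5 and 57.1% of the 7.

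The ratio of eIF4B was 1.29, 0.92 and 0.80 in Thor[2];Lsp2[A10], against -0.36, -0.12 and -0.31 in Lsp2[A10], a log2 change of 1.18 ± 0.17 (SE, adjusted p = 7.86e-06), and its change in the other pair was 1.56 ± 0.17 (adjusted p = 3.74e-07). The total RNA libraries enter both readouts. In the polysome libraries themselves the mean log2 CPM of eIF4B differed by -0.39 and 0.03 between the groups, against the fall in total RNA of 1.56 and 1.51. Polysome over monosome, which uses no total RNA library, had a mean log2 of 0.07 ± 0.18 in Thor[2];Lsp2[A10] and -0.08 ± 0.24 in Lsp2[A10] (SD, n = 3 each), with libraries that overlapped. In the other pair it was 0.20, 0.04 and 0.41 in Thor[2];Lsp2[B14], against -0.0031, -0.07 and -0.24 in Lsp2[B14], without overlap, at means of 0.22 ± 0.19 and -0.10 ± 0.12 (SD, n = 3 each). Monosome over total averaged 0.94 in Thor[2];Lsp2[A10] and -0.18 in Lsp2[A10], and 1.10 in Thor[2];Lsp2[B14] and -0.26 in Lsp2[B14]. Monosome libraries entered no test.

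For eIF4G2 the ratio was 1.48, 1.59 and 1.39 in Thor[2];Lsp2[A10], against 0.18, -0.80 and -0.66 in Lsp2[A10], and it rose by 1.80 ± 0.29 and 1.36 ± 0.29. In the polysome libraries its log2 level differed by -0.01 and -0.57. Of the shared calls, those of eIF4H1 and eIF3m came without a call in total RNA. eIF4H1 had ratios of 0.71, 0.60 and 0.62 in Thor[2];Lsp2[A10], against -0.66, -1.22 and -0.40 in Lsp2[A10], rising by 1.29 ± 0.21 and 0.68 ± 0.21, and its polysome level was higher by 1.29 and 0.66. eIF3m, a PCI-domain subunit, had ratios of 2.06, 2.14 and 1.96 in Thor[2];Lsp2[A10], against 0.68, 0.92 and 1.02 in Lsp2[A10]. It rose by 1.10 ± 0.15 (adjusted p = 4.25e-06) and 0.63 ± 0.15 (adjusted p = 0.00151), with no overlap in either pair.

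Falls in the ratio with Lsp2[A10] were largest, among factors above 10 CPM, for eIF1 and eIF2gamma. eIF1 changed by -0.99 ± 0.24 in each pair, while its polysome level differed by 0.04 in each. eIF2gamma sat low on polysomes throughout, with ratios of -2.55, -2.44 and -2.12 in Thor[2];Lsp2[A10], against -1.76, -1.42 and -1.79 in Lsp2[A10], and fell by 0.81 ± 0.17 and 0.96 ± 0.17, although part of its exons is shared with Su(var)3-9, so that reads of the 2 genes may be mixed. eIF3f1 fell by 0.58 ± 0.16 and 1.01 ± 0.16 and eIF1A by 0.55 ± 0.21 and 0.71 ± 0.21. The ratio of eIF4E3 fell by 1.92 ± 0.52 in the Lsp2[A10] pair, at under 3 CPM of total RNA.

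Several ratio calls belonged to 1 pair. With Lsp2[A10], eIF2Bgamma rose by 0.71 ± 0.18, eIF2D by 0.54 ± 0.15, eIF4EHP by 0.56 ± 0.16, eIF4A by 0.49 ± 0.16 and eIF5 by 1.37 ± 0.25. With Lsp2[B14], eIF4G1 rose by 1.01 ± 0.21 (adjusted p = 0.000519), against 0.14 ± 0.21 in the other pair, while eIF2Bdelta fell by 0.46 ± 0.18 (adjusted p = 0.0371, and 0.0685 with the flies as a block), eIF2beta by 0.59 ± 0.18 and eIF3k by 0.59 ± 0.20. The largest fall there by size was that of the very low eIF4E5, -1.36 ± 1.17, which was not called. The ratio of eIF4E1 was not called in either pair, at 0.34 ± 0.16 (adjusted p = 0.0901) and 0.28 ± 0.16 (adjusted p = 0.157).

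The Thor[2] changes of both pairs were then compared directly, as an interaction. No factor was called in total RNA, where 4.1% of all genes were, or in the ratio, where 0% of all genes were. By edgeR 1 factor in total RNA and 7 in the ratio had an unadjusted p under 0.05, as had 18.9% and 9.05% of all genes. DESeq2 called 0 and 2. The extremes in total RNA were eIF4E3, at 0.91 ± 0.44, and eIF5, at -1.02 ± 0.34 (adjusted p = 0.124), and in the ratio eIF4E5, at 1.81 ± 1.67, and eIF4E6, at -1.27 ± 0.82. For eIF4A in the ratio the difference was 0.60 ± 0.22 (adjusted p = 0.371) and for eIF4G1 -0.87 ± 0.30 (adjusted p = 0.318), so that the calls above in 1 pair alone are not shown to differ between alleles. For eIF4B it was -0.05 in total RNA and -0.38 ± 0.24 in the ratio, and for eIF4E1 -0.14 and 0.06.

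The Thor[2] changes ran with exon length, and the factors shared this with the whole transcriptome. Over all 10345 genes with a length, Spearman's rho between exon length and the Thor[2] change in total RNA was -0.678 with Lsp2[A10] and -0.791 with Lsp2[B14], and over the 37 factors -0.731 and -0.737. In the ratio it was 0.515 and 0.629 over all genes, and 0.418 and 0.668 over the 38 factors. In the polysome libraries alone it was -0.151 and -0.16 over all genes. These are descriptions over genes of the same libraries. The factors that rose with Lsp2[A10] had a median exon length of 1329 bases, those that fell 3892 bases, and eIF1 is the shortest named here with 681 bases and eIF4G2 the longest with 9097.

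With the length trend of each library removed, as an alternative chosen after seeing the data, 8 factors rose and 13 fell in total RNA with Lsp2[A10], where 59.1% of all genes were called, and 8 rose and 11 fell with Lsp2[B14], where 48.6% were. In the ratio 18 rose and 3 fell, with 34.3% of all genes called, and 8 rose and 6 fell, with 27.4%. eIF4B was almost the same, at -1.66 and -1.61 in total RNA and 1.36 and 1.69 in the ratio. eIF4G2 kept a call at -0.92 and -0.72, and eIF3f1 at 0.31 and 0.36. eIF4A rose by 0.59 and 0.49 and eIF4E1 changed by -0.37 and -0.20, both called. The rise of eIF1 was not called any more, at 0.08 and 0.01, nor was the fall of eIF5B, at 0.05 and 0.00039, and eIF4G1 kept a call only with Lsp2[B14], at -0.38, with -0.25 in the other pair. In the ratio the fall of eIF1 was not called, at -0.24 and -0.13, and eIF4G1 was called lower with Lsp2[A10], at -0.54. What sets the length trend was not tested.

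**Figure D3:**
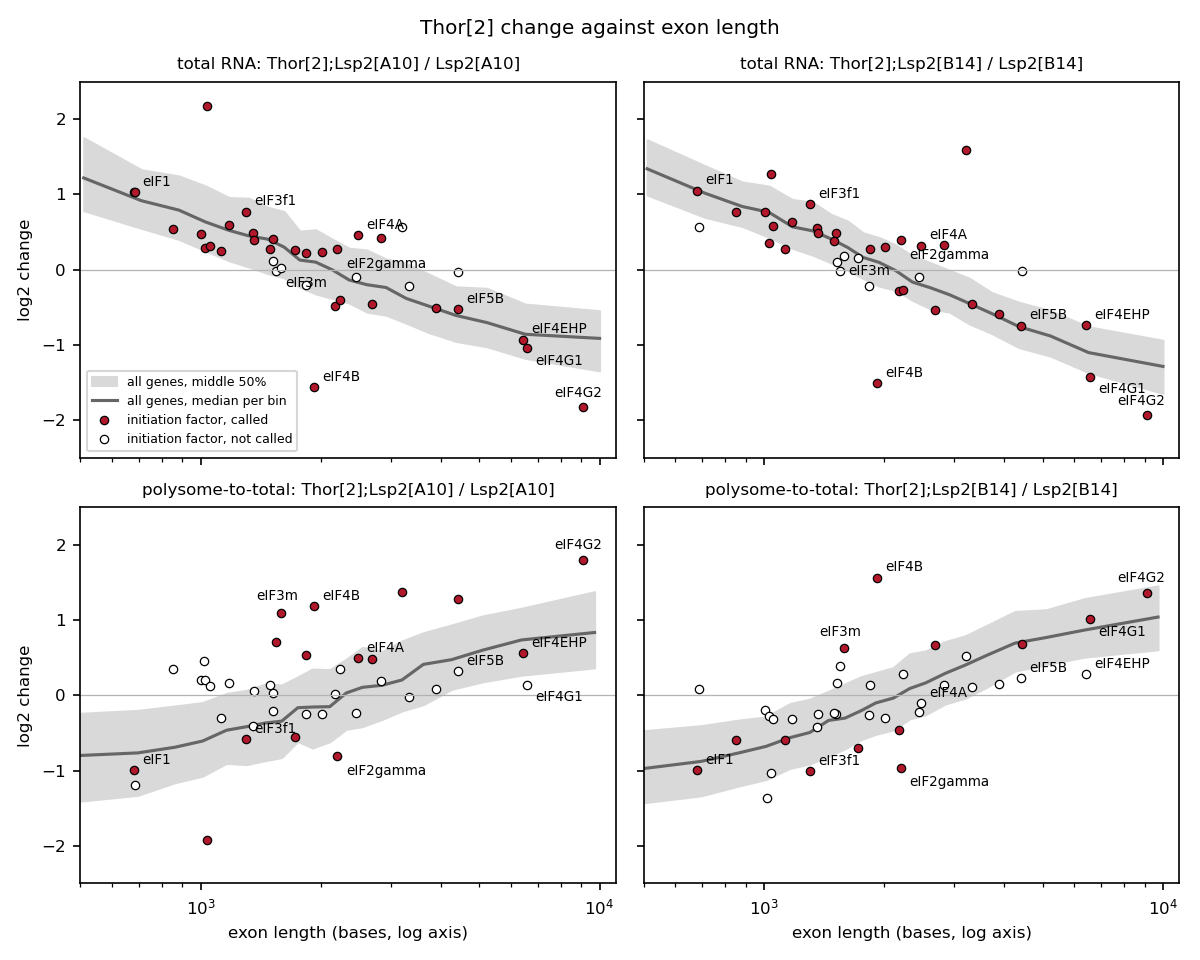
Log2 change with Thor[2] against exon length in bases (log axis), for total RNA and the polysome-to-total ratio in each Lsp2 allele; red points are factors called, white points factors not called, and the grey band and line give the interquartile range and the median of all genes by length. In total RNA the band falls with length and most factors lie in or near it, while eIF4B lies far below it in both alleles; in the ratio the band climbs and eIF4B lies above it.

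With age, at 15 d over 2-3 d, most called factors fell in total RNA, and eIF4B had the largest rise. In Lsp2[A10] 4 of 37 factors rose and 18 fell at 15 d, 59.5% called against 42.4% of all genes, and in Lsp2[B14] 4 rose and 20 fell, 64.9% against 35.1%. The median change was -0.27 over the factors in each allele, with 0.00 and -0.01 over all genes. Scaled by library totals, under which the medians of all genes moved to 0.15 and 0.11, the Lsp2[B14] calls were 6 higher and 15 lower. The alleles share 17 of the falls, 94.4% of the 18 and 85% of the 20, and 3 of the rises, those of eIF4B, eIF4E6 and eIF4EHP. The 15 d libraries also served in the Thor[2] comparison, so the values for Thor[2] and for age are not independent.

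eIF4B was at 152, 146 and 164 CPM in Lsp2[A10] at 15 d, against 45.1, 38.1 and 35.8 CPM at 2-3 d, and at 162, 144 and 140.3 CPM in Lsp2[B14] at 15 d, against 38.5, 33.0 and 33.7 CPM at 2-3 d. It rose by 1.96 ± 0.10 (SE, adjusted p = 1.49e-10) and 2.09 ± 0.10 (adjusted p = 5.46e-11), which is 3.89-fold and 4.25-fold by group means. Its polysome-to-total ratio fell by 1.30 ± 0.18 and 1.84 ± 0.18, while in the polysome libraries alone its log2 level differed by 0.68 and 0.26. Polysome over monosome lay the other way, at a mean log2 of -0.08 ± 0.24 in Lsp2[A10] at 15 d and -0.47 ± 0.16 at 2-3 d, and of -0.10 ± 0.12 in Lsp2[B14] at 15 d and -0.65 ± 0.23 at 2-3 d (SD, n = 3 each), without overlap in either allele. The 15 d libraries without Thor[2] thus had the highest eIF4B of the allele lines, and those labelled Thor[2] and those at 2-3 d were both at 33.0 to 57.1 CPM. In the Lpp[TS] lines at 15 d, normalized apart from these, it stood at 147 to 185 CPM.

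**Figure D4:**
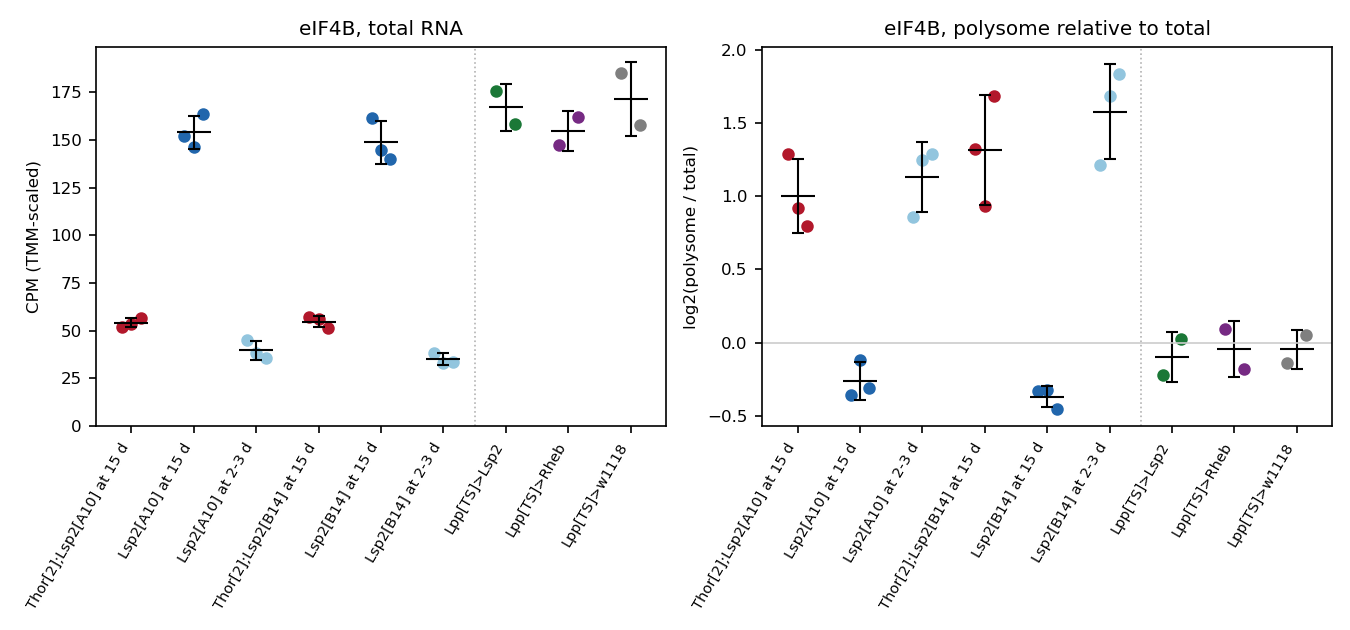
eIF4B in the 9 groups, with CPM of total RNA on the left and log2 of polysome over total on the right; dots are libraries, bars the group means and error bars the SD. Total RNA is between 33.0 and 57.1 CPM in flies labelled Thor[2] and in 2-3 d flies and above 140 CPM in the other 15 d groups, and the ratio is high where total RNA is low.

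Among the other eIF4 factors, eIF4A fell with age in total RNA, eIF4EHP and eIF4E6 rose in both alleles, and eIF4E1 and eIF4G1 were not called. eIF4E1 was at 668, 621 and 650 CPM in Lsp2[A10] at 15 d, against 693, 700.3 and 669 CPM at 2-3 d, with changes of -0.09 ± 0.07 (adjusted p = 0.347) and -0.10 ± 0.07 (adjusted p = 0.279) that were not called. eIF4G1 changed by 0.01 ± 0.14 and 0.33 ± 0.14 and was not called, and eIF4G2 rose in Lsp2[A10], by 0.52 ± 0.19 (adjusted p = 0.0396). eIF4EHP rose by 0.38 ± 0.09 and 0.30 ± 0.09. eIF4E6 rose by 1.19 ± 0.42 and 1.55 ± 0.40, and eIF4E3 by 1.60 ± 0.51 in Lsp2[B14], both from levels under 1 CPM. eIF4A, the most abundant factor per kb, fell by 0.47 ± 0.08 and 0.44 ± 0.08, with no overlap in either allele.

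Outside the eIF4 group no factor rose with age in total RNA. Of the 13 eIF3 subunits 10 fell in each allele. eIF3h, an MPN-domain subunit, fell most, by 0.63 ± 0.08 (adjusted p = 1.65e-05) and 0.69 ± 0.08 (adjusted p = 7.23e-06). It was at 291, 235 and 246 CPM in Lsp2[A10] at 15 d against 390.5, 405 and 401 CPM at 2-3 d. Of its exon bases 16.8% are shared with senju on the opposite strand, a limit if the counting ignored strand. eIF3f1 fell by 0.53 ± 0.09 and 0.57 ± 0.09, eIF3c by 0.56 ± 0.10 and 0.46 ± 0.10, and eIF3d1, whose human counterpart can bind the cap, by 0.47 ± 0.07 in each. eIF3e fell by 0.48 ± 0.07 and 0.35 ± 0.07, eIF3g1 by 0.42 ± 0.08 in each, and eIF3k by 0.27 ± 0.10 and 0.42 ± 0.10.

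eIF2A fell by 0.59 ± 0.07 and 0.47 ± 0.07, eIF2alpha by 0.44 ± 0.08 and 0.40 ± 0.08, and eIF2Bepsilon, the catalytic subunit of eIF2B, by 0.45 ± 0.08 and 0.27 ± 0.08. The scanning factor eIF1A was at 332, 327 and 348 CPM in Lsp2[A10] at 15 d, against 509, 508 and 485 CPM at 2-3 d, and fell by 0.58 ± 0.07 and 0.39 ± 0.07. eIF6 fell by 0.57 ± 0.08 and 0.49 ± 0.08. eIF1 changed by -0.39 ± 0.17 and -0.21 ± 0.17 and was not called, and eIF5 fell by 0.84 ± 0.25 in Lsp2[B14], within the limit on its reads given above.

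The polysome-to-total ratio rose with age for 4 factors and fell for 6 of 38 in Lsp2[A10], 26.3% called against 26% of all genes, and rose for 5 and fell for 7 in Lsp2[B14], 31.6% against 27%. With another scaling, by relative log expression, the split in Lsp2[A10] was 2 higher and 6 lower. Falls shared by both alleles were those of eIF2A, eIF3j, eIF3m, eIF4A, eIF4B and eIF5, 100% of the 6 and 85.7% of the 7, and the shared rise was that of eIF3e. With the flies as a block the fall of eIF5 lost its call in Lsp2[A10] (adjusted p = 0.0592), those of eIF3j and eIF4A lost theirs in Lsp2[B14] (adjusted p = 0.0508 and 0.0798), and the rise of eIF3g1 gained one there, at 0.60 (adjusted p = 0.0312). eIF2A fell by 0.70 ± 0.13 (adjusted p = 0.000364) and 0.81 ± 0.13 (adjusted p = 4.09e-05) on top of its fall in total RNA, and its polysome level differed by -1.26 and -1.28 log2. eIF4A was likewise lower in both readouts, with ratio changes of -0.62 ± 0.15 and -0.41 ± 0.15 and differences of -1.07 and -0.86 in the polysome level.

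eIF3m fell in the ratio by 0.72 ± 0.15 and 0.60 ± 0.15, with values of 0.68, 0.92 and 1.02 in Lsp2[A10] at 15 d against 1.67, 1.45 and 1.90 at 2-3 d. eIF3j fell by 0.52 ± 0.14 and 0.39 ± 0.14, and eIF5 by 0.83 ± 0.27 and 1.06 ± 0.28. eIF3e had ratios of -0.67, -0.30 and -0.30 at 15 d, against -1.22, -1.18 and -0.93 at 2-3 d in Lsp2[A10], and rose by 0.78 ± 0.18 and 0.62 ± 0.18. In Lsp2[A10] alone, eIF4E3 rose by 3.09 ± 0.87 from under 1 CPM, and eIF3g1 and eIF6 rose by 0.62 ± 0.22 and 0.52 ± 0.18, with libraries that overlapped. In Lsp2[B14] alone, eIF1A rose by 0.81 ± 0.19, eIF2Bepsilon by 0.93 ± 0.24, eIF2gamma by 0.80 ± 0.17 and eIF3i by 0.40 ± 0.14 (adjusted p = 0.0322, and 0.0589 with the flies as a block), and eIF3b fell by 0.69 ± 0.16. The ratios of eIF4E1 and eIF4G1 were not called, at -0.02 ± 0.14 and -0.03 ± 0.20 in Lsp2[A10].

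The age changes of the alleles were not shown to differ. The interaction called 0 factors in total RNA, with 0.172% of all genes called, and 0 in the ratio, with 0%. By edgeR 0 and 3 factors had an unadjusted p under 0.05, as had 7.66% and 6.45% of all genes, and DESeq2 called 0 in each. The interaction of eIF4B was -0.13 ± 0.13 (adjusted p = 0.898) in total RNA and 0.54 ± 0.25 (adjusted p = 0.742) in the ratio, and the extremes were eIF5 at 0.53 and eIF4E3 at -0.88 in total RNA, and eIF4E3 at 2.38 ± 1.14 and eIF2gamma at -0.65 ± 0.24 in the ratio. Spearman's rho between exon length and the age change was 0.107 and 0.197 over 10431 genes in total RNA, and -0.417 and -0.259 over 11131 genes in the ratio. With the length trend removed, 4 factors rose and 20 fell with age in Lsp2[A10] in total RNA, with 52.3% of all genes called, and 4 rose and 22 fell in Lsp2[B14], with 43.5%. In the ratio 2 rose and 8 fell, with 24.4% of all genes called, and 5 rose and 10 fell, with 29.2%.

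No initiation factor was called between the 2 Lsp2 alleles when libraries were treated as independent, and 4 were called in the ratio at 2-3 d with the flies as a block. Lsp2[A10] over Lsp2[B14] gave 0 called factors at 15 d in total RNA, where 2.21% of all genes were called, and 0 in the ratio, where 0% were. Thor[2];Lsp2[A10] over Thor[2];Lsp2[B14] gave 0 in each, with 4.16% and 0.0904% of all genes called, and at 2-3 d the count was 0 in each, with 0.332% and 0.0687%. Unadjusted p-values under 0.05 were found by edgeR for 2, 2 and 0 factors in total RNA and for 6, 5 and 8 in the ratio, in that order of comparisons. Over all genes the shares were 11.1%, 16.4% and 5.34% in total RNA and 6.83%, 10.1% and 21.8% in the ratio. DESeq2 called none in total RNA and 1, 0 and 4 in the ratio. With the flies as a block, the ratio at 2-3 d was called higher in Lsp2[A10] for eIF2Bepsilon, at 0.76 (adjusted p = 0.0196), eIF2gamma, at 0.74 (adjusted p = 0.00649), and eIF3a, at 0.50 (adjusted p = 0.0315), and lower for eIF2Balpha, at -0.86 (adjusted p = 0.00477), with 15.6% of all genes called. Without Lsp2[B14] replicate 1 at 2-3 d, 5 factors were called in the ratio at that age, and without Thor[2];Lsp2[B14] replicate 3, 1 factor was called in total RNA between the Thor[2] lines.

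At 15 d the extremes in total RNA were eIF5 at 0.62 ± 0.25 and eIF4E3 at -0.29, and in the ratio eIF4G1 at 0.51 ± 0.21 and eIF4E5 at -1.19. Between the Thor[2] lines they were eIF4E3 at 0.62 ± 0.28 and eIF5 at -0.40 in total RNA, and eIF4E5 at 0.63 and eIF4E6 at -1.57 ± 0.57 in the ratio. At 2-3 d eIF4B had the highest difference in total RNA, 0.18 ± 0.11, and eIF2Bdelta the lowest, -0.05, and in the ratio eIF2Bepsilon was highest, at 0.76 ± 0.22 (adjusted p = 0.102), and eIF2Balpha lowest, at -0.87 ± 0.23 (adjusted p = 0.0928). At 15 d the differences of eIF4A, eIF4B, eIF4E1 and eIF4G1 in total RNA were 0.00, 0.05, 0.04 and -0.20.

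In the Lpp[TS] lines the well-expressed initiation factors were not called. Lpp[TS]>Lsp2 over Lpp[TS]>w1118 gave 0 of 44 factors in total RNA, with 0.0166% of all genes called, and 0 in the ratio, with 0%. In each, 1 factor had an unadjusted p under 0.05 by edgeR, against 3.87% and 2.23% of all genes, while DESeq2 called 0. The count in total RNA rests on 1 library, the Lpp[TS]>Lsp2 replicate with the testis markers. Factors were called both up and down without it, with the lone remaining library assumed to vary like the other groups. No count is given for a fit with a lone library. Lpp[TS]>Rheb over Lpp[TS]>w1118 gave 1 factor in total RNA, with 1.53% of all genes called, and 0 in the ratio, with 0%. In that ratio 0 factors had an unadjusted p under 0.05 by edgeR, against 1.4% of all genes, and DESeq2 called 0. In total RNA, with only these groups in the fit, 2 factors rose and 6 fell.

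The factor called in Lpp[TS]>Rheb was eIF3f2, a paralog of eIF3f1. It was at 21.3 and 21.4 CPM in Lpp[TS]>Rheb, 15.5 and 9.44 CPM in Lpp[TS]>Lsp2, and 5.93 and 5.31 CPM in Lpp[TS]>w1118. Both lines lay above w1118 without overlap, and the log2 change was 1.92 ± 0.27 with Rheb (SE, adjusted p = 0.0393) and 1.15 ± 0.26 with Lsp2 (adjusted p = 0.822). The call with Rheb was lost when any 1 of its libraries or those of w1118 was left out, at log2 changes of 1.84 to 2.00.

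For Rheb over w1118, eIF4A changed by -0.05, eIF4B by -0.15, eIF4E1 by -0.24 and eIF4G1 by -0.26 in total RNA, and by 0.07, 0.04, 0.28 and 0.14 in the ratio, none of them called. For Lsp2 over w1118 the changes were -0.11, -0.04, 0.11 and 0.20 in total RNA and 0.33, -0.02, -0.25 and -0.35 in the ratio. With Lsp2, the most negative change in total RNA was that of eIF1, at -0.32 ± 0.23, which was also the most positive in the ratio, at 0.66 ± 0.29. With Rheb the most negative change in total RNA was that of eIF4E4, which had no count in either Rheb library. Its w1118 libraries were at 0.827 and 2.96 CPM, with a mean 35.3-fold above a floor of 3 counts over both Rheb libraries. For eIF3d2, also without a count with Rheb, w1118 was at 0.389 and 1.34 CPM, with a mean 16.1-fold above the floor. The floor takes no account of the spread between replicates, so these are not bounds on the fold change. eIF4E5 was at 0.0317 and 0.041 CPM with Rheb, against 0.73 and 2.68 CPM in w1118, and eIF4E7 at 0.0634 and 0.041 CPM, against 0.584 and 1.05 CPM. These differences were not called, with adjusted p between 0.328 for eIF4E5 and 0.473 for eIF4E7. The extremes of the ratio were very low factors too, eIF3d2 at -1.28 ± 2.67 with Lsp2 and eIF4E6 at -0.32 ± 0.92 with Rheb, and no rise in the ratio is given for eIF3d2 with Rheb, where total RNA had no count of it.

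Several low paralogs of these lines were high in the libraries in which testis markers were high. eIF4E4 had 165 and 0 counts in Lpp[TS]>Lsp2, 0 and 0 in Lpp[TS]>Rheb, and 17 and 62 in Lpp[TS]>w1118. eIF4E5, eIF4E7, eIF4H2 and eIF3d2 were likewise highest in the first Lpp[TS]>Lsp2 library, at 4.77, 2.10, 3.99 and 3.50 CPM, and at or under 0.128 CPM in the second and in both Rheb libraries. The 4 testis markers summed to 61.0 and 0.0854 CPM in Lpp[TS]>Lsp2, 0.127 and 0.246 CPM in Lpp[TS]>Rheb, and 8.75 and 22.4 CPM in Lpp[TS]>w1118. The 5 accessory gland markers summed to at most 2.41 CPM, and 3 testis and all 5 accessory gland markers were at 0 in at least 1 Lpp[TS]>Lsp2 library. The part of male RNA in the paralog levels was not tested. eIF3f2, eIF4E3 and eIF4E6 did not follow this order. eIF3f2 was highest in the Rheb libraries, eIF4E3 stood at 5.51 and 0.384 CPM in Lpp[TS]>Lsp2, 1.05 and 3.28 CPM in Lpp[TS]>Rheb, and 1.02 and 2.87 CPM in Lpp[TS]>w1118, and eIF4E6 at 1.05 and 0.861 CPM in Lpp[TS]>Rheb, against 0.389 and 0.86 CPM in Lpp[TS]>w1118.

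**Figure D5:**
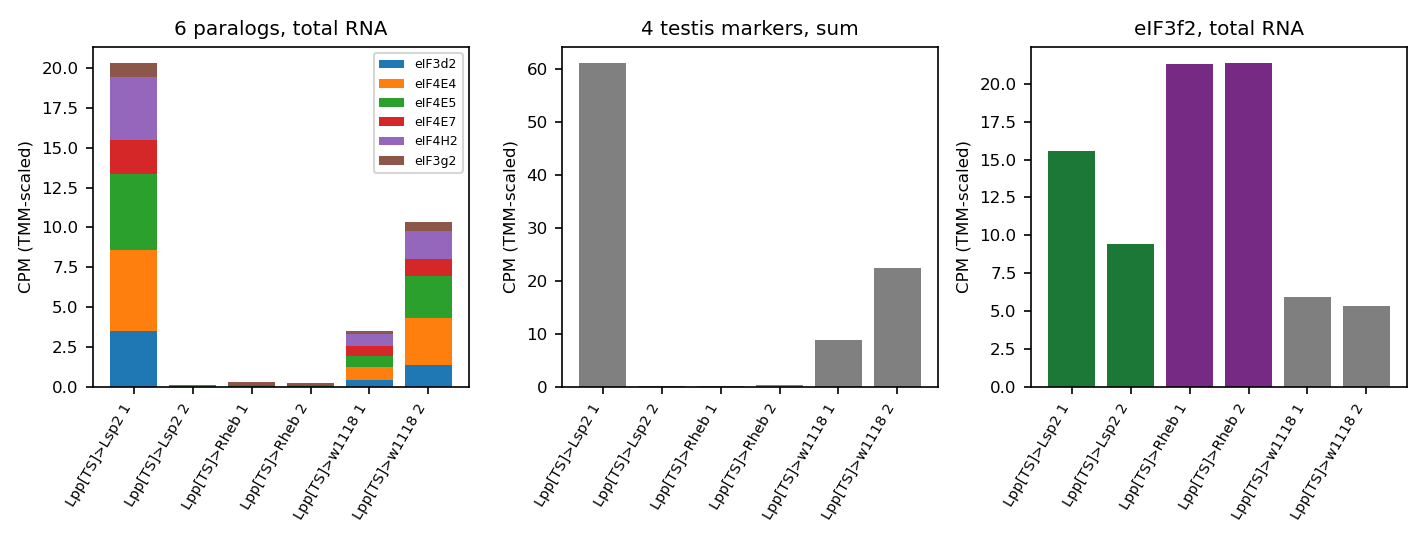
Total RNA in the 6 libraries of the Lpp[TS] lines, with the stacked CPM of 6 low paralogs, the summed CPM of 4 testis markers, and the CPM of eIF3f2. The stack follows the testis sum, highest in the first Lpp[TS]>Lsp2 library with 61.0 CPM of markers, while eIF3f2 is highest in the 2 Lpp[TS]>Rheb libraries at 21.3 and 21.4 CPM.

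Summed levels of tissue markers differed beside the Thor[2] and age changes. With Thor[2], 66.8% and 69.2% of all genes were called in either direction, and the marker counts below are by direction. Of 10354 genes tested, 3566 were called higher and 3349 lower in the Lsp2[A10] pair, and 3649 and 3520 in the Lsp2[B14] pair. The 6 germline markers summed to 650 to 707 CPM in Thor[2];Lsp2[A10], against 1038 to 1112 CPM in Lsp2[A10] at 15 d. Of the 6, 3 were called lower in this pair and 4 in the other. The 6 muscle markers summed to 2557 to 2994 CPM in Thor[2];Lsp2[A10], against 1235 to 1453 CPM in Lsp2[A10] at 15 d, with 5 of 6 called higher. In the Lsp2[B14] pair they summed to 2002 to 2512 CPM with Thor[2] and 1501 to 1617 CPM without. With age, the muscle markers stood at 1235 to 1453 CPM in Lsp2[A10] at 15 d, against 7972 to 9226 CPM at 2-3 d. All 6 were called lower in each allele, where 42.4% and 35.1% of all genes were called in either direction. Of 10440 genes tested, 2346 were called lower in Lsp2[A10] and 2004 in Lsp2[B14]. The 10 eggshell markers summed to 10439 to 14170 CPM in Thor[2];Lsp2[A10], against 5560 to 8596 CPM in Lsp2[A10] at 15 d, with 7 of 10 called higher. In the Lsp2[B14] pair they summed to 8030 to 12308 CPM with Thor[2] and 6514 to 8141 CPM without, with libraries that overlapped. The 4 neuron markers summed to 78.8 to 114 CPM in Thor[2];Lsp2[A10], against 119 to 149 CPM in Lsp2[A10], with 3 of 4 called lower. In the Lsp2[B14] pair they summed to 74.2 to 110 CPM with Thor[2] and 118 to 172 CPM without. The 5 adult fat body markers summed to 32766 to 35004 CPM in Thor[2];Lsp2[A10], against 15040 to 23281 CPM in Lsp2[A10] at 15 d, and to 23216 to 26258 CPM in Thor[2];Lsp2[B14], against 19812 to 21639 CPM in Lsp2[B14], without overlap in either pair. Of the 5, 3 were called higher in the first pair, and 1 higher and 1 lower in the second, and the list includes Yp1, Yp2 and Yp3, yolk protein genes that follicle cells also express. The 5 larval fat body markers stood at 896 to 986 CPM in Lpp[TS]>Rheb, against 16.3 to 19.5 CPM in Lpp[TS]>w1118. No germline, muscle, eggshell, neuron or adult fat body marker was at 0. Their part in the changes of the factors was not tested.

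Among the other genes of translation, the 87 cytosolic ribosomal protein genes were set beside the factors. With Thor[2], 81 of 83 tested rose in total RNA in each pair, with medians of 0.98 and 1.21, against 0.24 and 0.28 for the initiation factors, which is 97.6% called in each pair against 66.8% and 69.2% of all genes. In the ratio 3 of 85 rose and 6 fell with Lsp2[A10], and 0 rose and 68 fell with Lsp2[B14]. That is 10.6% and 80% called, against 41% and 43.6% of all genes. These values take no account of exon length. Over all genes, the shortest, at a median of 509.5 bases, had median Thor[2] changes of 1.22 and 1.34 in total RNA. In the ratio the shortest, at a median of 493 bases, had -0.80 and -0.98. The part of length in the ribosomal protein changes was not tested. With age, 62 and 72 of 83 fell in total RNA, at medians of -0.50 and -0.56, against -0.27 for the factors in each allele, where 42.4% and 35.1% of all genes were called.

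Of 18 regulators and partners of initiation, 17 were tested in total RNA, cup being listed at 0 counts, and 4 rose and 9 fell with Thor[2] in Lsp2[A10], and 2 rose and 10 fell in Lsp2[B14]. That is 76.5% and 70.6% called, near the 66.8% and 69.2% of all genes, and the median change was -0.42 and -0.54, against 0.04 and 0.03 over all genes. The eIF2alpha kinases Gcn2 and PEK fell by 1.28 ± 0.15 and 1.29 ± 0.12 in the first pair, and NAT1, an eIF4G-like protein without the eIF4E site, by 1.29 ± 0.17. DENR, a partner of MCTS1 in reinitiation, rose by 1.01 ± 0.13. In the ratio 7 of 17 regulators rose and 4 fell with Lsp2[A10], 64.7% called against 41% of all genes. The Lsp2[B14] pair is not given here for this ratio, so that share is not shown to hold in both pairs. The rises were led by the eIF4E kinase Lk6, at 2.05 ± 0.22, and by S6k, at 1.85 ± 0.18. Exon length, with which the Thor[2] changes ran over all genes, was not taken into account for these regulators. Of 9 elongation and termination factors, 5 rose and 2 fell in total RNA with Lsp2[A10], 77.8% called against 66.8% of all genes, and 5 fell with age in each allele, 55.6% against 42.4% and 35.1%, eEF2, the translocase, by 0.62 in Lsp2[A10].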

How the data were processed

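The authors deposited raw read counts per gene for 72 libraries in 3 tables, one for the Lpp[TS] lines, one for the 15 d allele lines and one for the 2-3 d allele lines, each with total, monosome and polysome libraries. Per the labels' protocols, poly(A)+ RNA of whole females was sequenced as 150-bp pairs. The tools fastp 0.23.2, Bowtie2 2.3.4.1, STAR 2.2.1, featureCounts 1.6.0 and R 4.2.0 and the build BDGP6 are named in the submitters' processing notes, and the strand setting of the counting is not given in the sources used here. The tables list 23932, 13925 and 13925 features, of which 23851, 13915 and 13915 matched the Ensembl release 115 annotation (BDGP6.54) that gave symbols, exon lengths and coordinates.

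Counts were tested in R 4.3.3 with edgeR 4.0.16 (filterByExpr, trimmed mean of M values, robust quasi-likelihood fit) and Benjamini-Hochberg adjustment over all genes tested at 0.05. Total RNA was fitted alone, and the polysome-to-total ratio as an interaction of fraction and comparison. Each fit held all groups of its table, and age used both allele tables joined on gene ID. The SE is the log2 change over the root of F, with a prior count of 0.125 for the change and 0.5 for log2 levels. DESeq2 1.42.0, relative log expression factors, library totals, every gene with a count above 0, the groups compared alone, a replicate block, each replicate left out and, added after seeing the data, removal of each library's exon length trend were the alternatives. The tests were also run on simulated counts, drawn independently for each library and without a length trend. That check cannot show how the shared powder or the length trend affects the calls.

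Over 63 pairs of replicates, Spearman's rho of counts was 0.943 to 0.997 and the chi-square per degree of freedom 6.38 to 132, so no pair agreed within sampling noise. The members and lists were chosen with earlier results of these data known. In each comparison the text names the called factors (of over 12 in a direction, the 12 with the largest change), the largest rise and fall, and eIF4E1, eIF4A, eIF4B and eIF4G1, and it gives levels of paralogs. Total and polysome libraries of a replicate come from the same powder, per the labels' protocols, and pair in that sense. Their deviations from the group means correlated over 0.1 in 15 of 24 cases, at -0.069 to 0.77. Monosome libraries entered no test.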

Additional observations from a re-analysis of the deposited data

How the results depend on the processing

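Over 136 alternative fits, the counts of called factors with Thor[2] and with age, both directions together, stayed within 1.5 times of those reported. The exception was the 19 in total RNA for Lsp2[B14] with the exon length trend removed. The balance of directions was less stable. In total RNA with Thor[2], more factors fell than rose with the length trend removed in both pairs, and with library totals in the Lsp2[A10] pair. With each replicate left out in turn, 25 to 29 factors were called with Thor[2] in total RNA in Lsp2[A10] and 28 to 31 in Lsp2[B14], and 18 to 22 and 21 to 25 with age. In the ratio the ranges were 12 to 15 and 10 to 17 with Thor[2], and 7 to 11 and 8 to 10 with age. For the Thor[2] lines by allele they were 0 to 1 in total RNA, and at 2-3 d by allele 0 to 5 in the ratio. No range is given for the Lpp[TS] lines, where each such fit leaves a lone library in a group. For Lpp[TS]>Rheb in total RNA, DESeq2 called 2 factors, the fit with the groups compared alone 8 and the replicate block 0. DESeq2 called 2 in the ratio for the difference of the Thor[2] changes, 1 between alleles at 15 d and 4 at 2-3 d, where the replicate block called 4 and length removal 2. The cause of these moves was not tested.

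Removing the length trend turned the sign of called Thor[2] changes. In total RNA with Lsp2[A10] these were eIF2Balpha at -0.18, eIF2beta at -0.33, eIF3g1 at -0.36, eIF3h at -0.069, eIF3j at -0.025, eIF3k at -0.25, eIF5B at 0.046 and eIF6 at -0.32, and in the ratio eIF4EHP at -0.15. With Lsp2[B14] they were eIF2beta at -0.36, eIF3a at 0.042, eIF3c at 0.0016, eIF3g1 at -0.37, eIF3k at -0.10, eIF4EHP at 0.30, eIF5B at 0.00039 and eIF6 at -0.12 in total RNA, and eIF2beta at 0.0054 and eIF3k at 0.18 in the ratio. Of the 105 called values in total RNA, 67 kept their call, 22 lost it and 16 turned. Library totals kept 79 and ended 26 calls, and DESeq2 kept 103.

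Across groups the replicate numbers were not taken to pair total RNA libraries, which correlated over 0.1 in 5 of 51 cases, and there the replicate block kept 101 of 105 calls. In the ratio, with the flies as the block, it kept 45 of 50, and the calls lost or gained stand beside their results. Depth limits the paralogs under 1 CPM and eIF5.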
